A study of Mus musculus with 8 samples.

Results

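The insulin and IGF signalling genes described here are 10 genes found by their names in the count table of brown adipose tissue (BAT) in cancer-associated cachexia: the receptors Insr and Igf1r, the ligand Igf1, its carrier Igfbp3, the docking proteins Irs1 and Irs2, the kinase components Pik3r1 and Akt2, and the transcription factors Foxo1 and Foxo3. All 10 were present among the 56953 Ensembl genes of the table, and 9 of them passed the low-count filter and were tested among 9876 genes. The control mice (CTR, n = 4) received PBS, and the cachectic mice (CAC, n = 4) received 3000000 Lewis lung carcinoma (LLC) cells under the skin of the flank and were followed for 21 days. All mice were wild-type C57BL/6J, 8 to 10 weeks old at the start of the experiment. Each library holds the BAT RNA of 1 mouse. By the study's methods only mice that developed a tumour were kept, and the tissue is whole BAT, so fewer cells of a type and less RNA per cell cannot be told apart.

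Insulin and IGF1 bind receptor tyrosine kinases that phosphorylate the docking proteins IRS1 and IRS2, which recruit phosphoinositide 3-kinase and so activate AKT. Active AKT phosphorylates FOXO factors and keeps them out of the nucleus, and FOXO factors left in the nucleus by low insulin induce genes of the fasted state, among them Irs2 in liver. In brown fat this pathway drives glucose uptake and lipid storage, and IGF1 supports the growth of brown adipocyte precursors.

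No member was called. With adjustment over all tested genes, 0 of the 9 tested members had an edgeR adjusted p below 0.05, where 0.932% of all tested genes did (0.739% higher and 0.192% lower in CAC). DESeq2 and limma also called 0 members. With an unadjusted p below 0.05 there were 2 members, Foxo1 and Irs2, against 12.9% of all tested genes (7.01% higher and 5.93% lower in CAC). That number was 1 without CTR replicate 4, where the unadjusted p of Irs2 was 0.0541, and 3 without CAC replicate 2 or 4. These 2 genes were higher in CAC and ran in the same order across the libraries. The means of Insr, Igf1r, Igf1, Igfbp3, Pik3r1 and Akt2 differed between the groups by less than the SD over mice of either group. For Irs1 the difference was below the SD in CTR but not that in CAC. The 6 members with a positive log2 fold change and the 3 with a negative one had a median of 0.14, where the median over all tested genes was 0.00.

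Total counts were 2454493 to 4827956 per CTR library and 1823167 to 3392538 per CAC library, of which 1495.5 to 3488.5 fell on the 10 members. A count of 0 allows a level of up to 3 counts, or 0.661 to 1.62 CPM, the unit of counts scaled to the TMM-normalized library size, which covers the error of counting alone. The summed CPM of 8 brown adipocyte markers was 16020 to 17708 in CTR and 15548 to 17739 in CAC, and all 8 were above the filter. For progenitors and fibroblasts the sums were 534 to 715 CPM in CTR and 487 to 731 CPM in CAC, with 1 of 8 tested markers called higher, and for endothelial cells 330 to 407 and 338 to 429 CPM, with 2 of 7 called higher. The sums of Schwann cell markers also overlapped, with 0 of 3 called. The 9 macrophage markers summed to 209 to 234 CPM in CTR and 289 to 409 CPM in CAC, with 2 of 8 tested markers called higher. The 8 neutrophil markers summed to 6.12 to 6.92 CPM in CTR and 165 to 431 CPM in CAC, and only 3 of them passed the filter, on which their high CAC values bear. For skeletal muscle the 8 markers summed to 1223 to 2941 CPM in CTR and 2456 to 4495 CPM in CAC, and for erythrocytes the 5 markers summed to 6180 to 19266 and 14631 to 44312 CPM, with 0 called in either list. The 7 T, NK and B cell markers summed to 3.32 CPM at most and none of them passed the filter.

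The promoters of the docking protein genes and of Foxo1 are shown because the fold changes of Irs1 and Irs2 had opposite signs and Irs2 and Foxo1 ordered the libraries alike. Of the members, 9 had at least 1 window in the RefSeq promoter table (build GRCm38.p6). Each sequence is the 250 bases before the annotated start, 5′ to 3′ on the gene's strand, and capitals mark matches on either strand to the insulin response element core TGTTTTG, the E-box CACGTG, the CCAAT box CCAAT or the FOXO element GTAAACA.
Irs2, chr8:11008930-11009179, minus strand: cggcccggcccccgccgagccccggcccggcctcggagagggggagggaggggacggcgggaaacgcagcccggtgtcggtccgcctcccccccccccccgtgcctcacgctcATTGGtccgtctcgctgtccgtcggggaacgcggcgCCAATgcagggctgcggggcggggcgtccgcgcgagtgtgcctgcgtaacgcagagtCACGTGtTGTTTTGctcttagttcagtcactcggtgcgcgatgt
Irs1, chr1:82291440-82291689, minus strand: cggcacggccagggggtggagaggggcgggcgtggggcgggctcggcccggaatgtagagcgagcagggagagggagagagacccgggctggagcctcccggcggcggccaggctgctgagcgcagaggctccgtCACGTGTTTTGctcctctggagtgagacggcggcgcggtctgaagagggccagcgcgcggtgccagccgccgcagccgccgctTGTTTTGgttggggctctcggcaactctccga
Foxo1, chr3:52268087-52268336, plus strand: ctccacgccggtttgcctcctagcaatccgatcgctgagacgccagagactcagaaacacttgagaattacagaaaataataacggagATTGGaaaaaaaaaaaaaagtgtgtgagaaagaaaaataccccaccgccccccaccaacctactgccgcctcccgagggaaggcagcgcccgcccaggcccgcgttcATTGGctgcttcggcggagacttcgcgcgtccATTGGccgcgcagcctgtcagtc
In both docking protein genes an insulin response element core lies beside an E-box or shares letters with it. Distances are counted from the RefSeq start, which lies upstream of the GENCODE start of Irs2 (11008458) and of Irs1 (82291416). In Irs2 the E-box begins 44 bases and the core 37 bases before the start, and in Irs1 they begin 115 and 111 bases before it and share letters, with a further core at 32 bases. Of 32851 promoter windows of this length, 5.56% hold the core, 6.02% the E-box and 0.295% both. The FOXO element GTAAACA, present in 3.17% of windows, was in 0 of the 13 windows of members. Only these letters stood for FOXO in the search, so the windows may hold other sequences that FOXO factors bind. Foxo1 has neither the core nor the E-box in its window, and holds 3 CCAAT boxes, which 33.8% of windows contain. The motifs were chosen after the sequences were seen, and a match is a description of letters, not evidence of a bound factor.

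Insr (ENSMUSG00000005534.11; GRCm38 chr8:3122061-3279617), the insulin receptor, was at 20.5, 18.9, 23.2 and 17.2 CPM in CTR replicates 1 to 4 and at 17.8, 23.9, 18.8 and 17.1 CPM in the CAC replicates. The groups overlapped almost fully. Its log2 fold change was -0.04 with a 95% interval of -0.38 to 0.31 (standard error 0.17, edgeR adjusted p = 0.957). Igf1r (ENSMUSG00000005533.11; chr7:67952827-68233668), the IGF1 receptor, was at 9.36, 12.8, 10.4 and 12.1 CPM in CTR and at 6.49, 21.8, 10.8 and 11.5 CPM in CAC. CAC replicate 2 stood highest and CAC replicate 1 lowest of all 8 libraries, so that the spread in CAC (12.7 ± 6.49 CPM, SD, n = 4) was wider than in CTR (11.2 ± 1.57 CPM). Its log2 fold change was 0.14 with an interval of -0.40 to 0.68 (adjusted p by edgeR = 0.881), and it was -0.19 without CAC replicate 2.

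**Figure D1:**
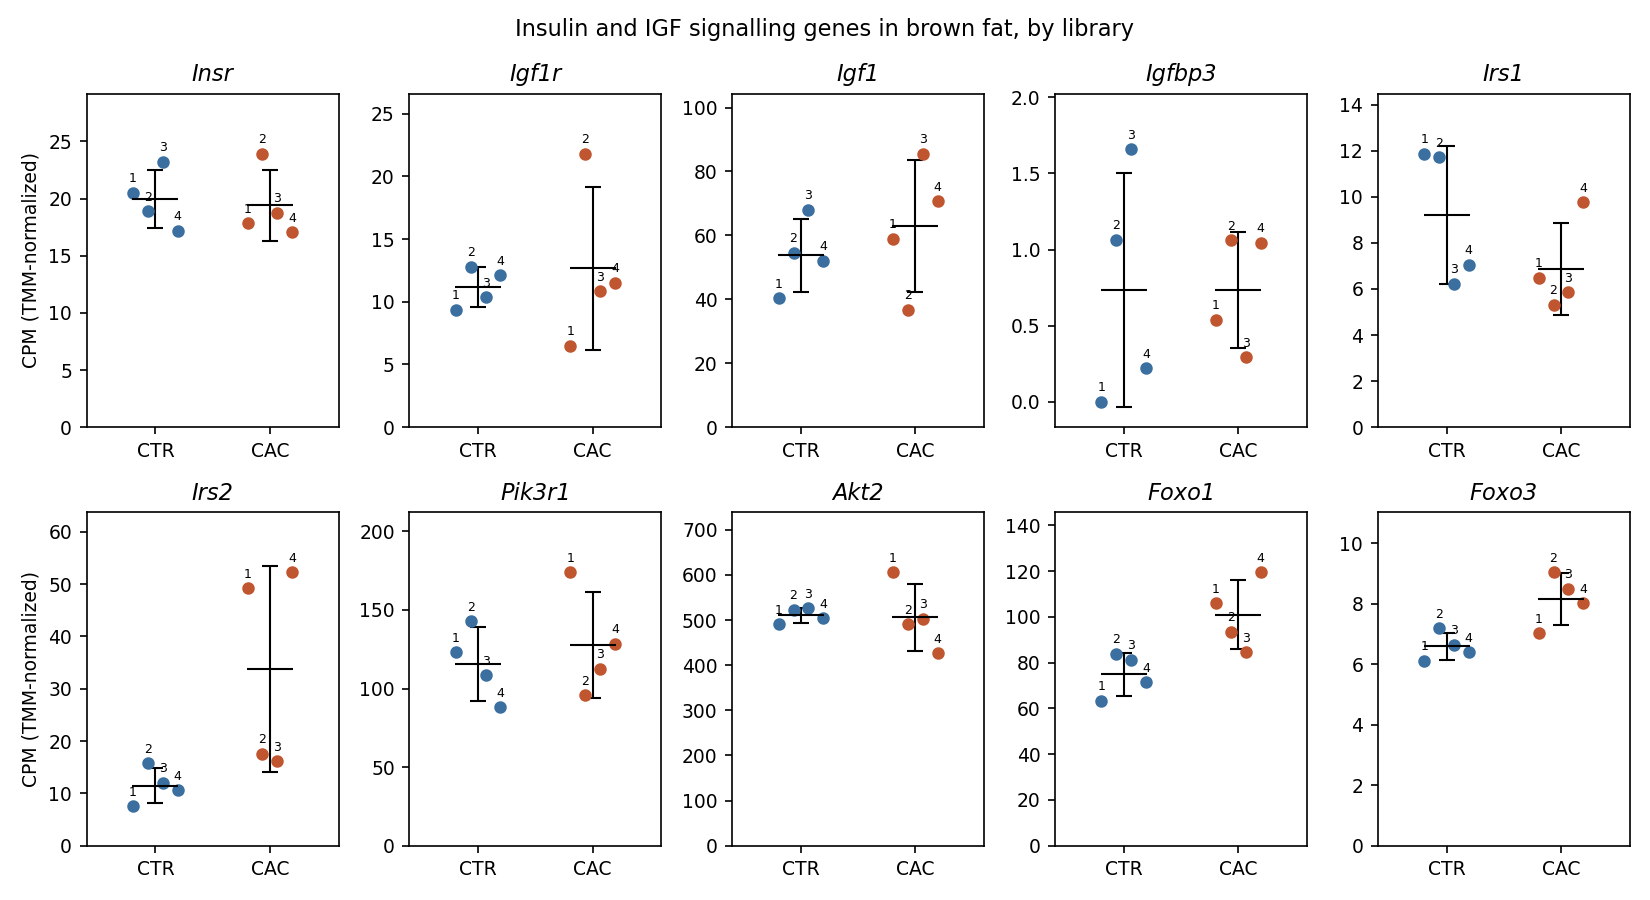
Level of each of the 10 members in every library, in CPM on a linear axis (TMM-normalized), for CTR (blue) and CAC (orange). Numbers beside the points are replicate numbers, and black marks are the mean ± SD of 4 mice. Irs2 is at 49.2 and 52.3 CPM in CAC replicates 1 and 4 and at 17.5 CPM or less in the other libraries.

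Igf1 (ENSMUSG00000020053.19; chr10:87858265-87937042), a growth factor made by many tissues besides liver, was at 40.3, 54.6, 68.1 and 52.0 CPM in CTR and at 58.9, 36.7, 85.6 and 70.8 CPM in CAC. The lowest and the highest value both belonged to CAC libraries, replicates 2 and 3. Its log2 fold change was 0.26 with an interval of -0.28 to 0.80 (adjusted p by edgeR = 0.723). It was 0.06 without CAC replicate 3, 0.15 without CTR replicate 1 and 0.43 without CAC replicate 2 (edgeR adjusted p = 0.943, 0.896 and 0.285). In the same libraries the macrophage markers, which mark one cell type known to make IGF1, summed to 289 CPM in CAC replicate 2 and 409 CPM in CAC replicate 3, the lowest and the highest of the CAC group. Within CTR the order was the reverse, with the lowest sum, 209 CPM, in replicate 3, where Igf1 was highest, and the highest, 234 CPM, in replicate 1, where Igf1 was lowest. Their part in the Igf1 level was not tested. Igfbp3 (ENSMUSG00000020427.12; chr11:7206086-7213923), the main carrier of IGF1 in blood, was nearly absent. CTR replicates 1 to 4 had 0, 4, 4 and 1 counts and the CAC replicates 1, 2, 1 and 3, too few for the test. That is 0.74 ± 0.77 CPM in CTR against 0.74 ± 0.38 CPM in CAC (SD, n = 4, exact two-sided permutation p = 0.971), so a difference was not detectable at this depth.

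Irs2 (ENSMUSG00000038894.8; chr8:10984681-11008458), the docking protein whose gene is known to be induced on fasting, had the largest log2 fold change of the members. It had 21, 59, 29 and 48 counts in CTR replicates 1 to 4 and 91, 33, 55 and 150 counts in the CAC replicates, or 7.56, 15.7, 12.0 and 10.6 CPM and 49.2, 17.5, 16.1 and 52.3 CPM. CAC replicates 1 and 4 lay far above all other libraries, while CAC replicates 2 and 3 lay just above the highest CTR library. The mean was 11.5 ± 3.39 CPM in CTR against 33.8 ± 19.6 CPM in CAC (SD, n = 4), 2.95-fold higher. Its log2 fold change of 1.53 (standard error 0.50, 95% interval 0.34 to 2.72) exceeded that of all but 0.253% of tested genes, and its edgeR adjusted p was 0.274 (unadjusted 0.0194). An antisense gene, 9530052E02Rik, overlaps an exon of Irs2 and had 1 count at most in any library.

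With every CAC library above every CTR library, Irs2 had an exact two-sided permutation p of 0.0286, the smallest that 4 against 4 mice allow. In 3.64% of all tested genes the CAC libraries likewise all lay above the CTR libraries, and in 7.04% the groups were apart in either direction. The gap is narrow, since the lowest CAC value was 1.03 times the highest CTR value, and it was 0.983 times when library size alone set the scale, so that the groups then overlapped. Of the 5 scalings tried, 3 kept the groups of Irs2 and of Foxo1 apart, and the other that did not was library size without mitochondrially encoded genes (0.985 times for Irs2 and 0.970 times for Foxo1). In CAC replicates 1 and 4, where Irs2 was high, the brown adipocyte markers summed to 17739 and 17312 CPM, against 15944 and 15548 CPM in CAC replicates 2 and 3. That sum was also 17708 CPM in CTR replicate 4, where Irs2 was at 10.6 CPM. The muscle sum was 2456 and 4191 CPM in CAC replicates 1 and 4, and 3654 and 4495 CPM in the other CAC libraries. Neutrophil markers summed to 431 and 165 CPM in replicates 1 and 4 and erythrocyte markers to 44312 and 23672 CPM, in each list the highest sum and one below that of CAC replicate 3. The part of these cell types in the Irs2 level was not tested.

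Irs1 (ENSMUSG00000055980.3; chr1:82233101-82291416), the other main docking protein of adipocytes, was at 11.9, 11.7, 6.22 and 7.06 CPM in CTR and at 6.49, 5.32, 5.86 and 9.76 CPM in CAC. CTR replicates 1 and 2 were the highest, and the remaining libraries of the groups overlapped. Its log2 fold change was -0.41 with an interval of -0.98 to 0.16 (adjusted p by edgeR = 0.570). With 1 library left out it ranged from -0.26 (without CTR replicate 2, edgeR adjusted p = 0.843) to -0.64 (without CAC replicate 4, edgeR adjusted p = 0.412). The antisense gene Gm9747 overlaps an exon of Irs1 and had 9.5 to 40.5 counts per library beside 10.5 to 44.5 for Irs1, and 5 libraries hold fractions of reads on Irs1. The strand setting of the counting is not given in the sources used here, so reads from the pair cannot be told apart.

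The balance between the docking proteins was also taken within each library. The log2 ratio of Irs1 to Irs2 counts, with 0.5 added to each, was 0.64, -0.42, -0.93 and -0.58 in CTR replicates 1 to 4 and -2.87, -1.67, -1.44 and -2.40 in the CAC replicates. All 4 CAC libraries lay below all 4 CTR libraries. The mean for CTR was -0.32 ± 0.68 and that for CAC was -2.10 ± 0.66 (SD over 4 mice), a difference of -1.77. A ratio within a library does not depend on its scaling, and no test was made of it because the members were chosen with earlier results known. Irs2 by itself also put the groups apart on the TMM scale, as 7.04% of all tested genes did in either direction. How often the ratios of other gene pairs do so was not examined. Reads of the antisense gene Gm9747 may be among those of Irs1 in this ratio. The ratio of Insr to Igf1r was 0.83 ± 0.35 in CTR and 0.73 ± 0.54 in CAC on the same log2 scale, so the groups differed by less than the spread between mice.

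Pik3r1 (ENSMUSG00000041417.16; chr13:101680563-101768217) encodes the regulatory subunit of phosphoinositide 3-kinase. It was at 123, 143, 108 and 88.0 CPM in CTR and at 174, 95.7, 113 and 129 CPM in CAC. CAC replicate 1 was the highest library and CTR replicate 4 the lowest, with the others mixed. The log2 fold change was 0.14 with an interval of -0.27 to 0.55 (adjusted p by edgeR = 0.817), and it was -0.03 without CAC replicate 1. Akt2 (ENSMUSG00000004056.16; chr7:27591552-27640826), the AKT isoform that insulin uses for glucose uptake in fat, was the best counted member with 922 to 2286 counts per library, in 3 of which the counts hold fractions of reads. It was at 490, 523, 526 and 504 CPM in CTR and at 606, 490, 503 and 427 CPM in CAC. CAC replicates 1 and 4 were the highest and the lowest library. The means were 511 ± 16.8 and 506 ± 74.3 CPM (SD over 4 mice), and the log2 fold change was -0.01 with an interval of -0.22 to 0.20 (adjusted p by edgeR = 0.974).

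Foxo1 (ENSMUSG00000044167.7; chr3:52268336-52353221), the FOXO factor best known in adipose tissue, had the smallest p of the members in the robust edgeR fit, while Irs2 had the smaller p with DESeq2, with limma and in the fit that was not robust. It was at 63.3, 83.9, 81.3 and 71.4 CPM in CTR and at 106, 93.6, 84.7 and 120 CPM in CAC. All CAC libraries were above all CTR libraries, CAC replicates 4 and 1 by the most. The mean was 75.0 ± 9.45 CPM in CTR against 101 ± 15.2 CPM in CAC (SD, n = 4). The log2 fold change was 0.43 (standard error 0.13, 95% interval 0.16 to 0.69, edgeR adjusted p = 0.112), rank 248 by p among 9876 genes, and the exact two-sided permutation p was 0.0286. The lowest CAC value was 1.01 times the highest CTR value, and the groups overlapped when library size alone set the scale (0.968 times), while with upper quartile scaling that ratio was 1.00. Foxo3 (ENSMUSG00000048756.12; chr10:42181841-42276755), its close relative, was at 6.12, 7.19, 6.64 and 6.39 CPM in CTR and at 7.03, 9.04, 8.50 and 8.02 CPM in CAC. The groups overlapped by CAC replicate 1 and CTR replicate 2. With only 13 to 29 counts per library, its log2 fold change of 0.31 had an interval of -0.16 to 0.78 (adjusted p by edgeR = 0.613, exact two-sided permutation p = 0.0571).

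**Figure D2:**
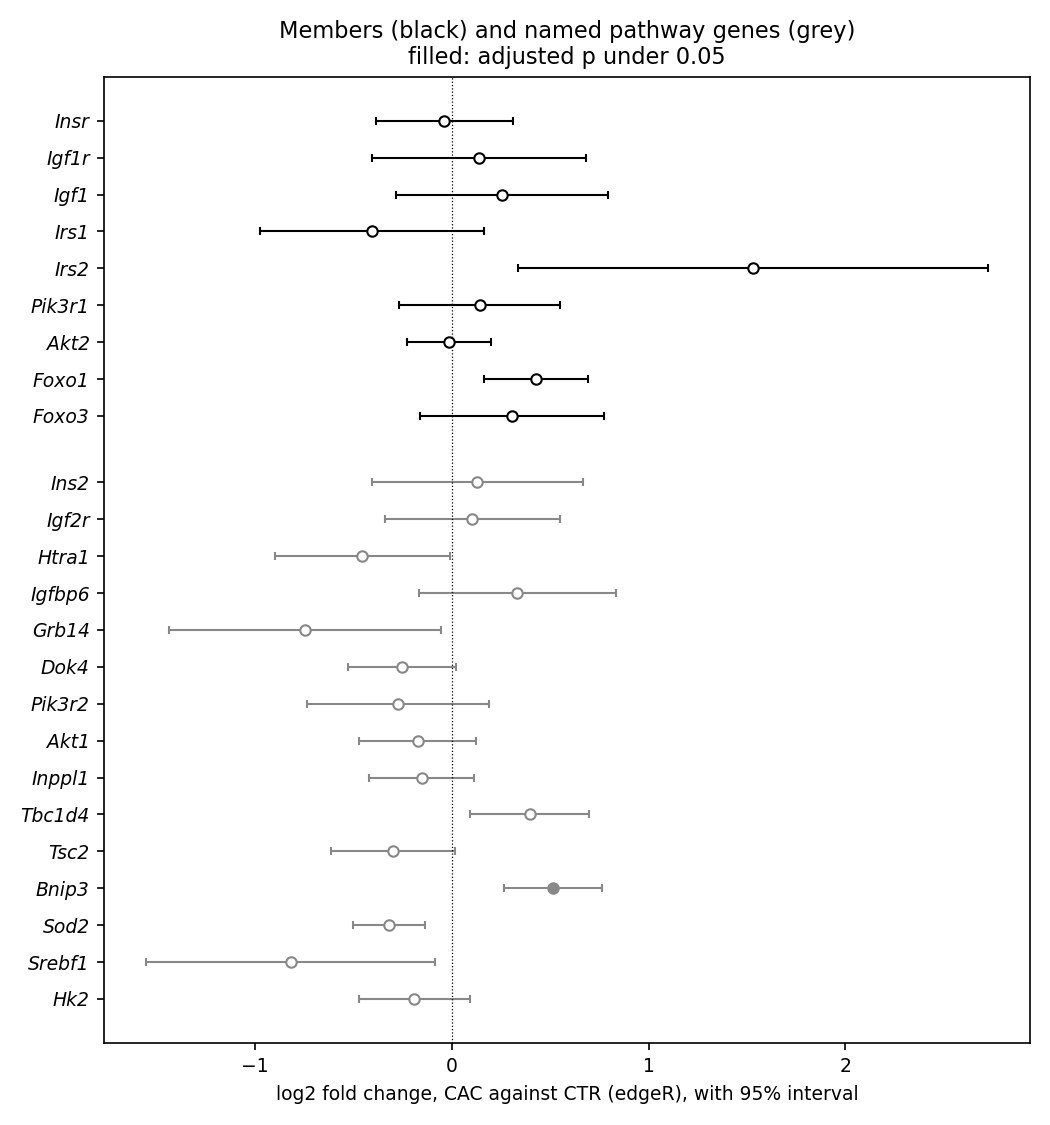
Log2 fold change of CAC against CTR (x axis) with its 95% interval for the 9 tested members (black) and for named pathway genes (grey), from the edgeR fit. The intervals of Irs2 (0.34 to 2.72) and Foxo1 (0.16 to 0.69) lie above 0, but only Bnip3 has an adjusted p below 0.05 (filled).

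Foxo1 and Irs2 put the libraries in the same order. In CTR both ran from replicate 2, the highest, through 3 and 4 to 1, and in CAC both ran from replicate 4 through 1 and 2 to 3. Among 8624 genes with a mean of at least 5 CPM, Irs2 was the gene whose log2 CPM was most like that of Foxo1, with a Pearson r of 0.957 and a Spearman rho of 1 over the 8 libraries. The groups differ in both genes, which adds to such a value, and r was 0.901 after the group means were taken out. Without the libraries farthest from the median of Foxo1, CAC replicate 4 and CTR replicate 1, r was 0.918 over 6 libraries. These values are descriptions that were not tested, and all of them come from the same libraries with their shared depth. Since a scaling multiplies both genes of a library by the same factor, this likeness includes whatever the scaling adds. Among the 36 pairs of tested members the next highest r was 0.613, for Foxo1 and Foxo3, which became -0.02 after the group means were taken out. With the group means taken out, the pairs next to Foxo1 and Irs2 were Foxo3 and Igf1r (r = 0.863) and Irs2 and Pik3r1 (r = 0.646).

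Other genes of the same pattern as Foxo1 were Optn, an autophagy receptor (r = 0.942), Gyg, the glycogenin that primes glycogen chains (r = 0.940), Angptl2, a secreted angiopoietin-like protein (r = 0.930), and Trim25, a ubiquitin ligase (r = 0.921). On the log2 scale they differed between the groups by 0.37, 0.35, 0.21 and 0.24, with edgeR adjusted p of 0.151, 0.166, 0.557 and 0.634. These are the 5 most similar genes together with Irs2, and the values describe these 8 libraries only. With the group means taken out, Angptl2 (r = 0.966) was more like Foxo1 than Irs2 was (r = 0.901). Seen from Irs2, Gyg was the most similar gene (r = 0.961) and Foxo1 the next (r = 0.957).

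**Figure D3:**
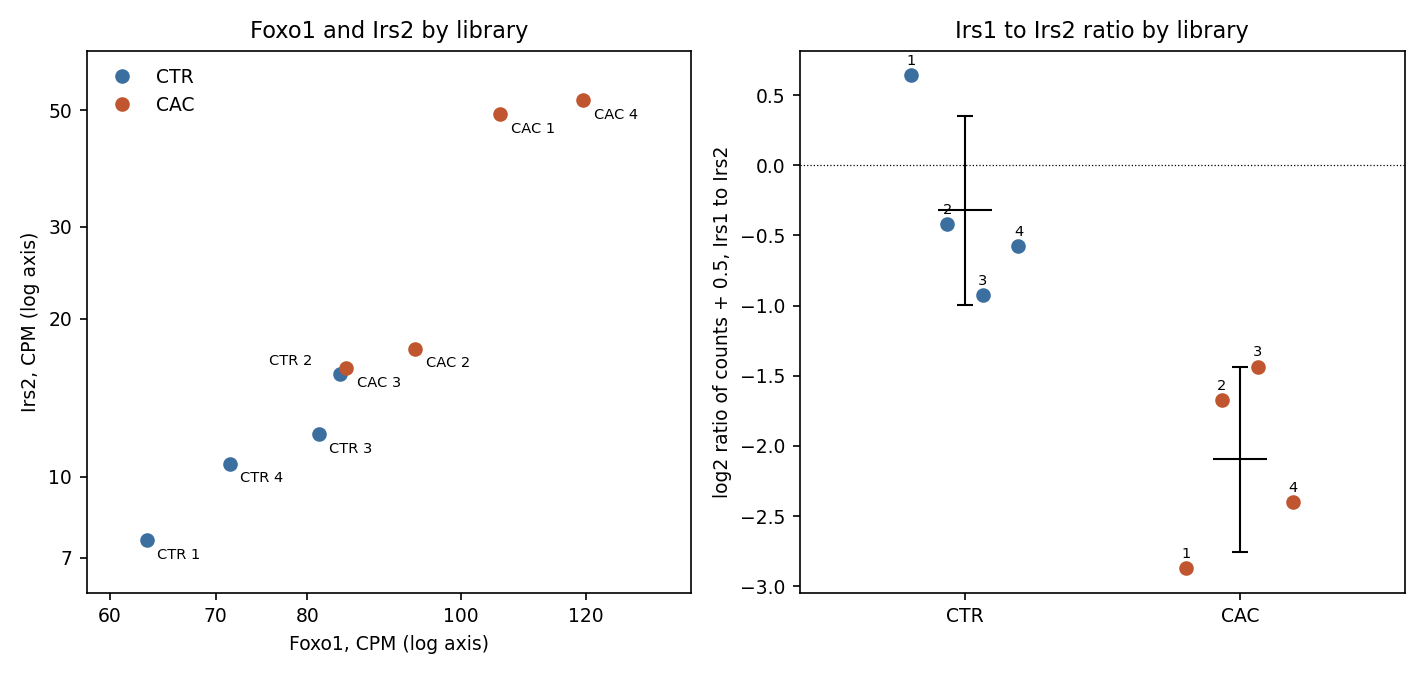
Left, Irs2 against Foxo1 in CPM on log axes, 1 point per library (CTR blue, CAC orange). Right, the log2 ratio of Irs1 to Irs2 counts by library, with the mean ± SD of 4 mice. The order of the libraries is the same on both axes of the left plot, and the CAC ratios (-2.87 to -1.44) lie below the CTR ratios (-0.93 to 0.64).

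Levels of different members were compared per kilobase of annotated exon (GENCODE M21), which presumes reads spread along the transcript. Whether reads of the digital mRNA-seq service do so is not stated in the sources used here. If they do not, the order below comes in part from exon length alone. In CTR, Akt2 was the highest at 71.6 CPM per kb, followed by Pik3r1 at 11.5, Foxo1 at 8.66 and Igf1 at 5.43 CPM per kb. Pik3r1 and Foxo1 overlapped between libraries, and Foxo1 and Igf1 did not. Below them came Irs2 at 1.81, Insr at 1.45, Irs1 at 1.01, Foxo3 at 0.870, Igf1r at 0.665 and Igfbp3 at 0.235 CPM per kb. In this lower part Irs2 overlapped Insr, Insr overlapped Irs1 and Irs1 overlapped Foxo3, while the ranges of Foxo3 and Igf1r did not overlap. The order depends on the length: without that division, Insr (17.2 to 23.2 CPM) lay above Irs2 (7.56 to 15.7 CPM) in CTR. In CAC, Irs2 stood at 5.34 CPM per kb, beside Igf1 at 6.36 and Insr at 1.41 CPM per kb. Without the division the CAC means of Irs2, Igf1 and Insr were 33.8, 63.0 and 19.4 CPM.

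The rest of the pathway was read from 8 lists of 98 other genes, of which 70 passed the filter. Of these, 1 was called higher and 0 were called lower, beside 0.932% of all tested genes called, and 7 had an unadjusted p below 0.05, beside 12.9% of all tested genes. Their median log2 fold change was 0.04, with 41 genes above and 29 below 0. No gene was called in the lists of ligands and receptors (2 tested of 5), binding proteins (7 of 13), adaptors and receptor inhibitors (10 of 16), PI3K, PDK1 and AKT (8 of 10), phosphatases and brakes (7 of 9), AKT substrates and mTOR complexes (17 of 18) or insulin-induced genes (7 of 8).

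**Figure D4:**
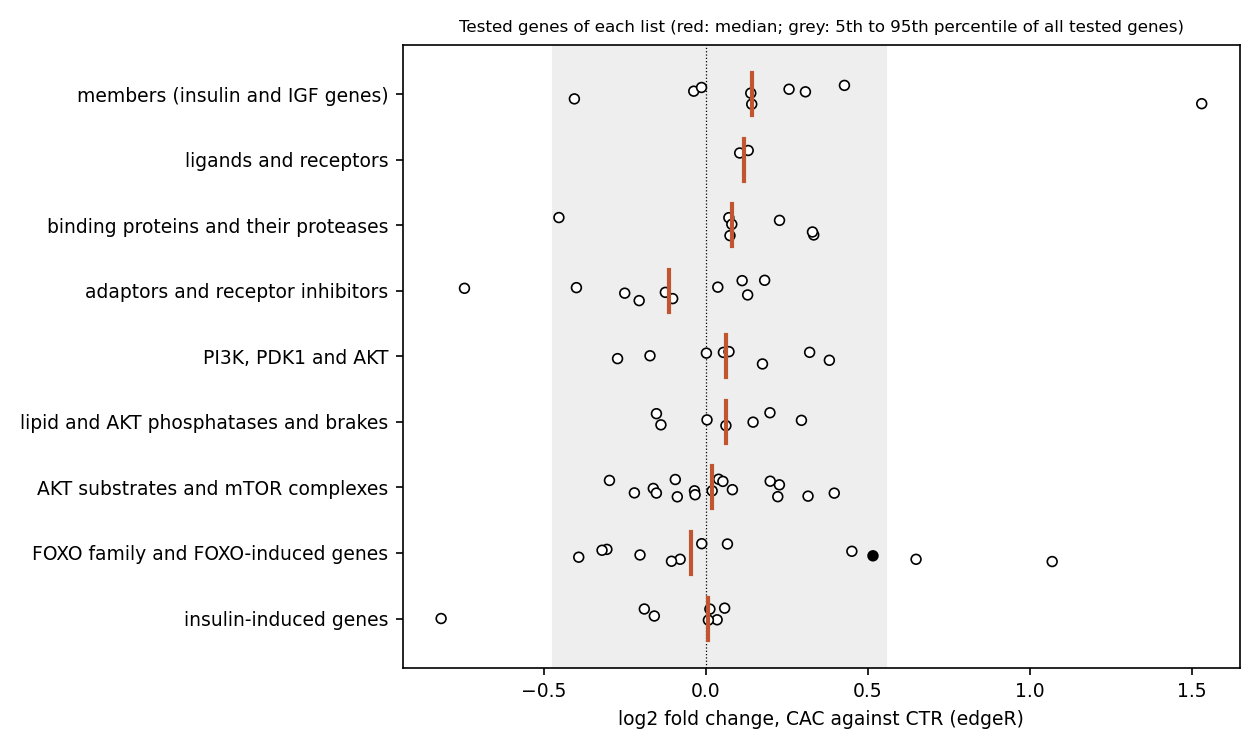
Log2 fold change of CAC against CTR (x axis) of every tested member and pathway gene, by list, with the median in red and adjusted p below 0.05 filled. Grey spans the 5th to 95th percentile of all tested genes (-0.47 to 0.55). List medians lie between -0.11 and 0.14, and Irs2 at 1.53 is the farthest point.

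Among ligands and receptors, Ins2, one of the mouse insulin genes, was at 6.73 ± 0.67 CPM in CTR against 7.52 ± 2.17 CPM in CAC (SD, n = 4, edgeR adjusted p = 0.888). Igf2r, which clears IGF2, was at 11.6 ± 2.34 and 12.0 ± 2.41 CPM (adjusted p by edgeR = 0.892). Of the binding protein list, Htra1, a protease that cleaves IGF binding proteins, had a log2 fold change of -0.45 (adjusted p by edgeR = 0.369). That of Igfbp6 was 0.33 (adjusted p by edgeR = 0.606). With 1 library left out, Htra1 ranged from -0.55 (without CAC replicate 1) to -0.29 (without CTR replicate 2). Igfbp6 ranged from 0.10 (without CAC replicate 3) to 0.48 (without CTR replicate 4).

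The receptor inhibitor Grb14, which blocks the insulin receptor kinase, was at 6.12, 5.86, 3.73 and 3.97 CPM in CTR and at 2.70, 3.72, 2.05 and 3.49 CPM in CAC. The CAC libraries lay just below the CTR libraries, with a log2 fold change of -0.74 and an interval of -1.44 to -0.05 (adjusted p by edgeR = 0.341). CAC libraries all lay below CTR libraries in 3.4% of all tested genes. Dok4, another docking protein, was lower in the same way, at an edgeR adjusted p of 0.437 and a log2 fold change of -0.25, and it overlaps Polr2c on the opposite strand. In the list of PI3K, PDK1 and AKT, where 6 of 8 tested genes were above 0 and the median was 0.06, the smallest p belonged to the regulatory subunit gene Pik3r2 and the kinase gene Akt1, with log2 fold changes of -0.27 and -0.17 (adjusted p by edgeR = 0.657 and 0.664). With 1 library left out, Pik3r2 ranged from -0.37 (without CTR replicate 2) to -0.16 (without CTR replicate 1). Akt1 ranged from -0.29 (without CTR replicate 1) to -0.06 (without CTR replicate 3). Of the phosphatases, Inppl1 had a log2 fold change of -0.15 (adjusted p by edgeR = 0.673). It was -0.05 without CAC replicate 1 and -0.20 without CAC replicate 3.

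Tbc1d4, a brake that holds GLUT4 vesicles inside the cell until AKT phosphorylates it, was at 25.2, 40.2, 38.2 and 29.3 CPM in CTR and at 47.0, 44.1, 43.4 and 40.8 CPM in CAC. The CAC libraries were all above the CTR libraries, by little at the nearest pair, with a log2 fold change of 0.40 (95% interval 0.09 to 0.70, edgeR adjusted p = 0.231). Tsc2, a brake on mTOR, had a log2 fold change of -0.30 (adjusted p = 0.418). In the insulin-induced list the lipogenic factor Srebf1 was at 28.1, 31.4, 19.5 and 11.5 CPM in CTR and at 11.9, 7.44, 16.4 and 13.2 CPM in CAC. CTR replicate 4 lay within the CAC range, and the log2 fold change of -0.82 had an edgeR adjusted p of 0.326, which became 0.0210 without that library and lay between 0.323 and 0.547 with any other library left out. Srebf1 shares exon sequence with Rai1 on the opposite strand, and 7 libraries hold fractions of reads on it. Exons of Pik3r2, Inppl1, Tsc2 and Fbxo32 also overlap genes of the opposite strand, whose reads cannot be told apart from theirs. Hk2, the hexokinase of insulin-sensitive tissues, had a log2 fold change of -0.19 (adjusted p by edgeR = 0.600). It was -0.09 without CAC replicate 4 and -0.31 without CTR replicate 4.

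Among FOXO-induced genes, Bnip3, a mitophagy receptor, was the only one called. It rose from 97.2, 82.6, 105 and 96.6 CPM in CTR to 118, 120, 142 and 162 CPM in CAC, with no overlap. The log2 fold change was 0.52 (standard error 0.12, 95% interval 0.27 to 0.76, edgeR adjusted p = 0.0398). All 8 libraries hold fractions of reads on Bnip3, and the antisense gene Gm45507 that overlaps it had 180.5 to 386.5 counts, so reads from this pair too cannot be told apart. The call was lost in 5 of the 8 fits that left out 1 library, with adjusted p of up to 0.147 without CTR replicate 2. The mitochondrial superoxide dismutase gene Sod2, in the same list, was lower, at 381 ± 16.1 CPM in CTR against 306 ± 7.83 CPM in CAC (SD over 4 mice), and its log2 fold change was -0.32 (adjusted p by edgeR = 0.0881). The atrophy ubiquitin ligases Fbxo32 and Trim63, named after their values were seen, had log2 fold changes of 0.65 and 1.07. Their edgeR adjusted p were 0.168 and 0.554. Trim63 had only 1, 20, 14 and 9 counts in CTR and 4, 10, 19 and 38 in CAC. Both ligases are known from skeletal muscle, whose marker sums overlapped between the groups and were higher in mean in CAC. The part of muscle RNA in their levels was not tested. Of the 12 tested genes in the FOXO list, 5 had a positive and 7 a negative log2 fold change, with a median of -0.05.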

How the data were processed

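RNA from the BAT of 8 mice (4 CTR, 4 CAC) was read with a digital mRNA-seq service on a NovaSeq, 1 library per mouse. Per the labels and the study's methods, the authors checked reads with FastQC 0.11.9, aligned them to mm10 with HISAT2 2.2.1 and counted them per gene with the multi-mapping option of featureCounts. The authors deposited expected counts, which are not normalized and hold fractions of reads, and a signal, the count without its decimals divided by 1 DESeq2 size factor per library. The annotation release is not given in the sources used here. Coordinates are those of GRCm38 in GENCODE M21, matched by gene ID without version (91.3% of IDs, 10 of 10 members). With the version, 0.06% of IDs matched, so exon lengths and overlaps may differ from those of the annotation used for counting.

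Expected counts were rounded, with fractions of 0.5 to the even number, and analysed in R 4.3.3 with edgeR 4.0.16: filterByExpr, TMM and a robust quasi-likelihood fit comparing CAC with CTR without covariate, with Benjamini-Hochberg adjustment over all tested genes. Standard errors and 95% intervals derive from the quasi-likelihood F statistic. CPM uses the TMM-scaled library size. The procedure was tested on simulated data, and no value from that test is reported here. Exact two-sided permutation tests used the 70 assignments of the libraries. Pearson and Spearman correlations used log2 CPM with a prior count of 2. Pathway and marker lists were written by hand. The members and lists were chosen with earlier results of these data known. Named were all members, pathway genes with an adjusted p below 0.05, the 2 genes with the smallest p per list, and the 5 genes most like the member with the smallest p among genes of at least 5 CPM; 1 gene of this rule is not reported here. Alternatives were DESeq2 1.42.0, limma 3.58.1 on log2 of the deposited signal plus 1, library size and upper quartile scaling, other filters, truncated counts, a fit that was not robust, mitochondrially encoded genes left out, the replicate number as a block and each library left out. Rounding fractions of 0.5 up was chosen after seeing the data. Plots were made with Python 3.11.15 and matplotlib 3.10.9.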

Additional observations from a re-analysis of the deposited data

Results flagged for a closer look

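Of 78 groups of 4 libraries examined, 4 had 1 library far from the others, and chance gives 3.9, or 1 in 20. The groups did not cover all 98 pathway genes. Txnip was left out, with 153 CPM in CAC replicate 4 and 85.4 to 87.7 CPM in the other CAC libraries. Among the pathway genes examined, Inppl1, a lipid phosphatase that opposes PI3K, had 29.7 CPM in CAC replicate 1. The other CAC libraries had 41.1 to 42.5 CPM. Hk2 had 340.9 CPM in CAC replicate 4 and 448.0 to 466.5 CPM in the others. The summed brown adipocyte markers were at 17708 CPM in CTR replicate 4 against 16020 to 16242 CPM, and the summed macrophage markers at 209 CPM in CTR replicate 3 against 231 to 234 CPM. No member was among them.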

How the results depend on the processing

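Under all 19 alternatives, 0 members had an adjusted p below 0.05. For the 9 tested members, 164 of 171 values kept their direction and their side of the threshold, and the other 7 changed sign, each when 1 library was left out: the log2 fold change ranged from -0.138 to 0.0352 for Insr, -0.0294 to 0.261 for Pik3r1, -0.103 to 0.0676 for Akt2 and -0.187 to 0.318 for Igf1r. That of Igf2r ranged from -0.0047 to 0.22. Irs2 ranged from 1.20, without CAC replicate 4, to 1.80, without CAC replicate 3, with adjusted p from 0.0569 in the fit that was not robust to 0.478. With 1 library left out, Igf1 ranged from 0.06 to 0.43 and Irs1 from -0.64 to -0.26. The members with an unadjusted p below 0.05, 2, numbered 1 to 3 with 1 library left out and 1 with the replicate block. Foxo1 ranged from 0.34 to 0.51, with adjusted p from 0.0657 to 0.341. The number of genes with an edgeR adjusted p below 0.05, 92, became 351 without a low-count filter and 42 (without CTR replicate 1) to 135 (without CTR replicate 3) with 1 library left out, and it was 60 without CAC replicate 3; the cause was not tested. With the replicate block it was 140, with 0 members among them. Same-numbered libraries had correlations of -0.02 to 0.04 in their deviations from the group means. For 2 of 4 numbers, the CAC library that correlated best with the CTR library had the same number. With so few libraries, these values cannot show whether the numbers pair the mice. Bnip3 lost its call with upper quartile scaling (adjusted p = 0.0539), limma (0.0729) and the fit that was not robust (0.0679). Sod2 gained one with DESeq2 (0.0148) and Srebf1 without a filter (0.00236). Counts were low for Igfbp3, Foxo3, Igf1r and Irs1, at 55 or fewer in any library. What the depth adds to their spread was not tested.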
